A study of Mus musculus with 67 samples.

Results

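Kinetochore, spindle and condensin genes were examined in single cells cultured from mouse aorta and named by the study as vascular smooth muscle cells (VSMCs), which contract the artery wall. The set was a named list of 48 genes that act on mitotic chromosomes and the spindle, chosen by function and matched by symbol, and all 48 were found among the 39179 gene rows of the deposited table (20000 of those rows held any read). The cells came from the descending aorta of male C57Bl6 mice aged 3 to 4 months. They were grown in DMEM with 10% serum and 1% penicillin and streptomycin, left for 5 days, and then either taken as passage 1 or trypsinized and replated as passage 2. Single cells were captured on a microfluidic chip and sequenced, 22 at passage 1 and 45 at passage 2. No genetic change or drug is named for either group, and the labels tie no cell to an animal or culture, so each passage is 1 sample and differences between passages carry no test. The library identifiers of the passages also have different prefixes, so passage and library set cannot be told apart.

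At mitosis a kinetochore is built on the centromere of each chromosome. Its inner layer, the constitutive centromere-associated network, sits on nucleosomes that hold the histone variant CENP-A, and its outer layer, with the Mis12 and Ndc80 complexes, holds spindle microtubules while the spindle checkpoint delays anaphase until every chromosome is attached. Condensins fold the chromosomes and the chromosomal passenger complex corrects faulty attachments. Most of these genes are transcribed in the late phases of the cell cycle, so their transcripts are used as marks of dividing cells, and adult medial VSMCs divide rarely in the vessel but re-enter the cycle in culture.

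Passage 1 cells had 817021 to 1561129 reads and passage 2 cells 548419 to 1509589. Genes with a read numbered 4017 to 10733 and 4163 to 8731 per cell, and 3 cells (passage 1 cell 21 and passage 2 cells 13 and 15) had fewer than 5000. At least 3 of 10 smooth muscle markers reached a normalized count of 10 in 20 of 22 passage 1 cells and in 45 of 45 passage 2 cells, although Des was at 0 in every passage 1 cell. Their summed value had a median of 1545 at passage 1 (281 to 8633) and 7339 at passage 2 (1371 to 29930). That of 6 pericyte markers had medians of 402 (14.8 to 2445) and 3720 (up to 46440), and that of 10 fibroblast markers 1193 (226 to 6220) and 952 (62.4 to 4159). At least 3 fibroblast markers reached 10 in 19 of 22 and 38 of 45 cells, and at least 3 pericyte markers in 15 and 32. The rule of 3 markers thus does not separate these cell types. The part of these differences in the results below was not tested. At least 3 of 10 endothelial markers reached 10 in 5 passage 1 cells (cells 11, 12, 13, 14 and 16) and 2 passage 2 cells (cells 8 and 11). The summed endothelial markers lay between 3.40 and 7594 in passage 1 cells and between 0 and 7318 in passage 2 cells, with none of the 10 at 0 throughout. Of 10 macrophage markers, 6 were at 0 in every passage 1 cell and 7 in every passage 2 cell, among them Adgre1, Ptprc and C1qa, while Csf1r was at 10 in 40.9% and 15.6% of cells. Of 8 lymphocyte markers, 5 and 6 were at 0, among them Cd3e. The mean levels below cannot separate fewer cells with a transcript from less transcript per cell, so counts of cells stand beside them.

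Of the 48 genes, 47 had a lower mean at passage 2 and 1, Cenpa, had a higher mean. Of the genes that passed a filter on low values, given below, 54.7% had a lower mean. The difference is given as a log2 ratio, the log2 of the passage 2 mean plus 1 minus that of the passage 1 mean plus 1, in normalized counts. Its median over the 48 genes was -2.67, or 6.34-fold lower at passage 2, against -0.11 over the 8682 filtered genes and 0.005 over all 20000 genes with a read. At least 2-fold lower means were found for 38 members, where 19.4% of the filtered genes were 2-fold lower, and a 2-fold higher mean for 1 member, where 14.4% of the filtered genes were 2-fold higher. At least 8-fold lower means were found for 20 members, where 2.57% of the filtered genes were 8-fold lower. The 9 members within 2-fold were Cenpp, Cenpt, Dsn1, Nsl1, Zwint, Bub3, Ska1, Ska2 and Ska3. The filter kept genes with a mean of 10 or more, and reads in 25% or more of the cells, in the same passage. It was passed by 46 members, all but Nsl1 and Ska1. Passage 1 cells were read more deeply, and with every cell thinned to 500000 reads the median was again -2.67 and the number of 2-fold lower members 38. For 15 members, among them Cenpp, Cenpt, Ska2, Ska3, Prc1, Top2a and Ncapg, an exon overlaps that of another annotated gene. The other gene is on the opposite strand for 13 of them and on the same strand for Top2a and Ncapd2, and how the counting assigned such reads is not stated.

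Passage 2 was not uniformly lower, and the values of the passages overlapped for all 48 genes. The median passage 2 cell had a value of 0 for 33 members, while the median passage 1 cell had 0 for 2 members, Cenpl and Ska1. For many members 1 passage 2 cell held most of the remaining transcript. A single cell supplied over 50% of the passage 2 sum for 23 members and of the passage 1 sum for 1 member, Cenpw. No share over the filtered genes stands beside these counts of overlap, medians of 0 and single cells. They describe the members and are not read as particular to them. Summed over all 48 genes, the 4 highest cells held 46.4% of the passage 1 total (of 22 cells) and 42.4% of the passage 2 total (of 45 cells). The share of cells at a normalized count of at least 10 was higher at passage 1 for all 48 members, Cenpa included, and for 73.7% of the filtered genes.

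**Figure D1:**
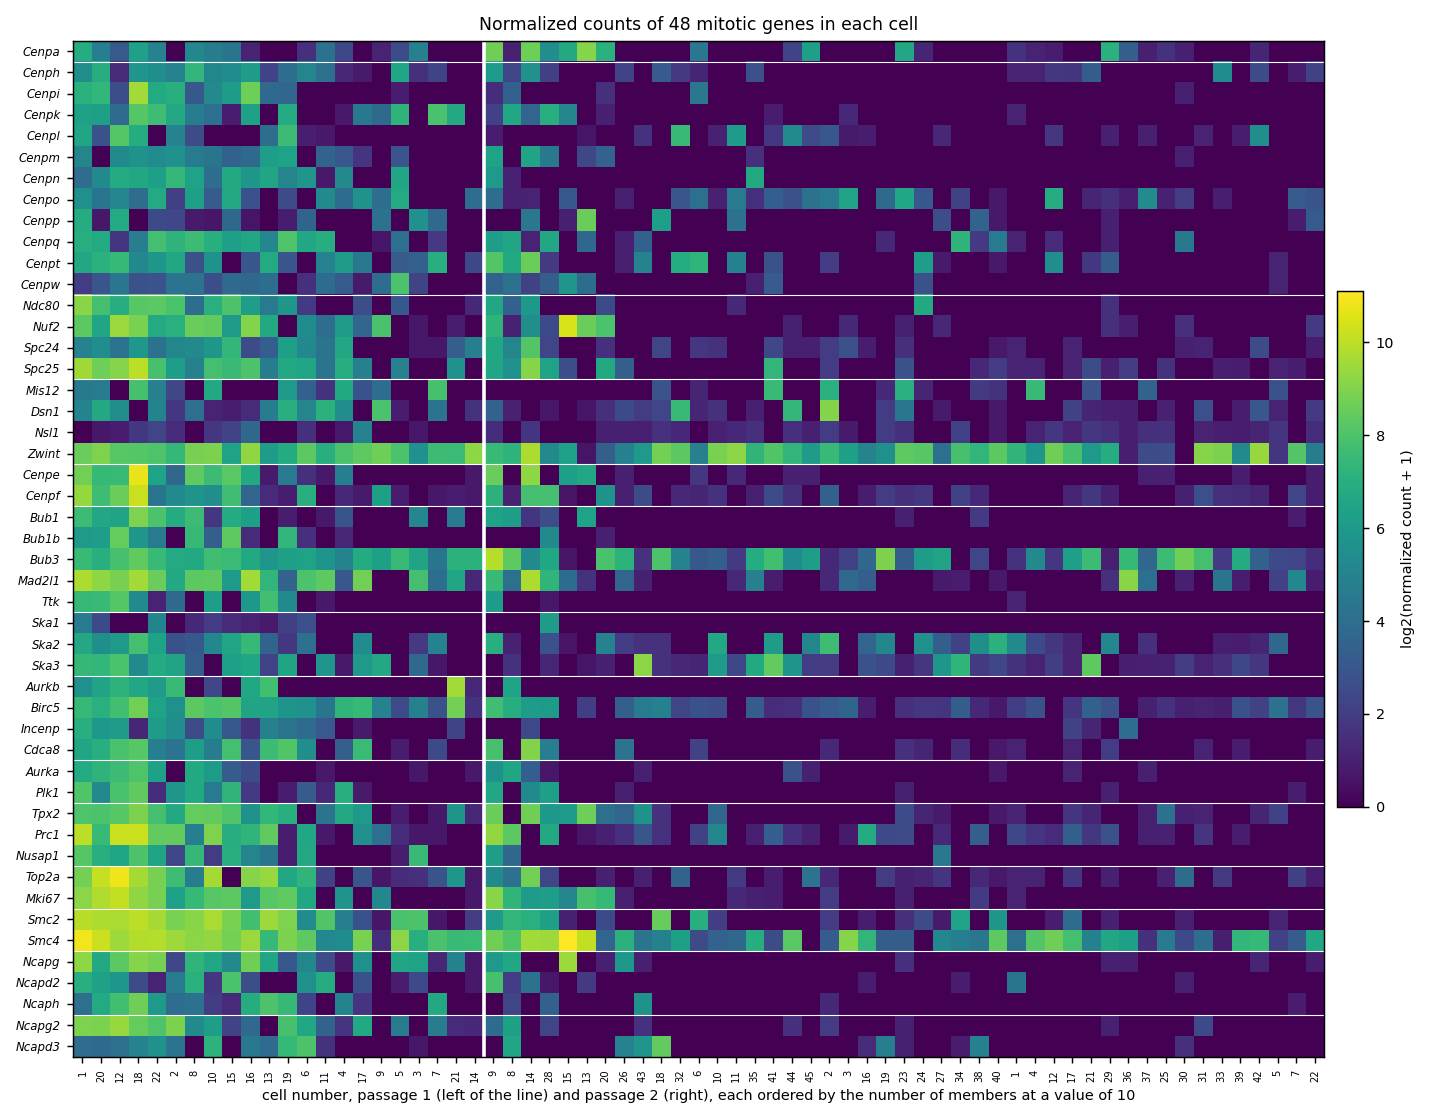
Normalized counts of the 48 genes (rows, grouped by complex) in 22 passage 1 cells and 45 passage 2 cells (columns, split by the white line), as log2 of the value plus 1, with the cells of each passage ordered by how many members reached a value of 10. Passage 1 cells held a median of 30 members at that level, and most passage 2 columns are dark outside Zwint, Bub3 and Smc4.

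Because most members differed in the same direction, their promoters are shown for the sequence elements known from late cell cycle genes. The cell cycle genes homology region (CHR) is bound by the MuvB complexes, which carry MYBL2 and FOXM1 partners when active, and the CCAAT box is bound by NF-Y. RefSeq promoters on GRCm38.p6, from 250 bases before to 50 after a transcript start, were found for 41 of the 48 genes (46 promoters). Both strands were searched for TTTGAA or TTCGAA (CHR) and for CCAAT. A CHR match lay in 56.5% of the members' promoters and 19.2% of all 32851 promoters, a CCAAT match in 69.6% and 37.4%, and both in 47.8% and 7.52%. The promoters with both belonged to 20 of the 41 genes. Below are stretches upstream of a RefSeq start from the 4 members with the highest passage 1 means among those with both. They run 5′ to 3′ along the gene's strand, with capitals at each match on either strand. They lie at chr4:52439066-52439116 (plus strand, Smc2), chr11:99024197-99024426 (minus strand, Top2a), chr7:80294404-80294461 (plus strand, Prc1) and chr7:135716462-135716577 (minus strand, Mki67).
Smc2: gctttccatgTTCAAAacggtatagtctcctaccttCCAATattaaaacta
Top2a: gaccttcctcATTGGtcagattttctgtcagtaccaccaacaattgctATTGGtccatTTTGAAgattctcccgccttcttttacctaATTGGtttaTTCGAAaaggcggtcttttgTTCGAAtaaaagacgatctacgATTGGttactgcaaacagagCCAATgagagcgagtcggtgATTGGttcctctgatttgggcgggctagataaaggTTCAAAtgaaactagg
Prc1: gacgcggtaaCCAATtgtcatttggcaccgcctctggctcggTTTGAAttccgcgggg
Mki67: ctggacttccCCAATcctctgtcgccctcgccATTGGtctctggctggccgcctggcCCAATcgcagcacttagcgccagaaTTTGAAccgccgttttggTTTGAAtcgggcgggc
The Top2a stretch, from 237 to 8 bases before the start, holds 4 CHR matches and 6 CCAAT matches, and the Smc2 and Prc1 stretches hold 1 of each. The Mki67 stretch holds 2 CHR matches and 3 CCAAT matches. The Prc1 stretch lies upstream of the later RefSeq start of that gene and runs across the earlier one. A match is a run of letters and was not tested as a bound site.

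Cenpa, the histone that marks the centromere, lies at chr5:30666777-30674830. Its value lay between 0 and 118 in passage 1 cells, with a median of 4.61, and between 0 and 544 in passage 2 cells, with a median of 0. The highest passage 2 values, 544 in cell 13 and 411 in cell 9, exceeded every passage 1 cell. Those of passage 2 cells 14, 20 and 29 did too, while the lower parts of the groups overlapped. The means were 18.2 ± 29.5 (SD, n = 22 cells) and 44.3 ± 117 (n = 45), a log2 ratio of 1.24. That direction depended on the summary, since the log2 ratio was -2.49 from medians over cells and -0.71 from means of log2 values. Cells at a value of 10 numbered 9 of 22 at passage 1 and 10 of 45 at passage 2. Each of the 9 passage 1 cells also held at least 11 other members at 10. Of the 10 passage 2 cells, 4 held at least 10 others and the lowest held 3. Among all cells, at least 10 members were at 10 in 21 of 22 at passage 1 and 7 of 45 at passage 2. The counts are therefore not read as particular to Cenpa. Without passage 2 cell 13 the log2 ratio was 0.83, and in 12 pairs of cells, one from each passage with reads within 10% of each other and cell 13 included, it was 2.62. Passage 1 cells 1, 12, 18 and 22, among those with the most members, were in no pair.

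The 11 genes of the constitutive centromere-associated network were all lower at passage 2, 9 of them by at least 2-fold, with a median log2 ratio of -2.40. Cenpi, a subunit that helps load CENP-A, had the lowest ratio of all 48 genes. It ranged from 0 to 754 at passage 1 with a median of 6.32, and from 0 to 20.5 at passage 2 with a median of 0, for means of 83.4 ± 177 and 0.778 ± 3.37. The log2 ratio was -5.57, and -4.88 without passage 1 cell 18, the highest cell. Only passage 2 cells 6 and 8 reached 10, against 10 passage 1 cells. Cenpq had the second highest passage 1 mean of the network, 75.9 ± 81.5, and 10.9 ± 30.8 at passage 2 (log2 ratio -2.69). Cenpp differed least and was carried by 1 cell at passage 2. It ranged from 0 to 118 with a median of 0.694 at passage 1, and from 0 to 392 with a median of 0 at passage 2. Its log2 ratio was -0.37, and -1.98 without passage 2 cell 13, which held the 392, and it was above 0 under TMM scaling (0.10) and without passage 1 cell 1 (0.14) or 12 (0.09), and was 2.80 in the 12 pairs of cells matched on reads, among which was cell 13. Cenpt, which joins the network to Ndc80, averaged 47.8 ± 53.7 and 27.8 ± 76.6 (log2 ratio -0.76), and its passage 2 peaks of 396 and 280 were in cells 14 and 9.

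Other network genes showed how thin the passage 2 signal was. Cenpn, which binds CENP-A nucleosomes, reached 10 in 15 of 22 passage 1 cells and in 2 of 45 passage 2 cells, cells 9 and 35. Its log2 ratio was -3.38, and -4.36 without cell 35. Cenpk was at 10 in 15 and 4 cells (log2 ratio -3.30, and -4.01 without passage 2 cell 28), Cenph in 13 and 3 (-2.67) and Cenpm in 12 and 4 (-1.92). Cenpl reached 10 in 6 passage 1 cells, each with at least 29 other members, and in 4 passage 2 cells, none with more than 6 others (log2 ratio -1.96, with -2.80 without passage 2 cell 32 and -1.35 without passage 1 cell 12). Cenpw had a log2 ratio of -2.40 that rested partly on passage 1 cell 5, at 248.5 (-1.24 without it). Cenpo was lower by a log2 ratio of -1.35. No cell of either passage held all 11 at 10. Taking 3 cells as the limit that a count of 0 allows, the share could be up to 6.67% of 45 cells and 13.6% of 22.

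The 4 subunits of the Ndc80 complex, the rod that binds microtubules, were all at least 2-fold lower, with a median log2 ratio of -2.31 (-3.33 without passage 2 cell 14 and -2.97 without passage 2 cell 15). Spc25, which anchors the rod at the kinetochore, had the highest passage 1 mean of the 4. It ranged from 0 to 1033 with a median of 82.9 at passage 1, and from 0 to 552 with a median of 0.812 at passage 2. It reached 10 in 18 of 22 and 6 of 45 cells, and its log2 ratio was -2.92 (-3.86 without passage 2 cell 14). Ndc80 itself ranged from 0 to 567 with a median of 18.9, and from 0 to 108 with a median of 0. Its means were 107 ± 151 and 6.26 ± 22.8, the lowest log2 ratio of the complex at -3.89. Spc24 had the highest ratio. It ranged from 0 to 162 with a median of 22.2, and from 0 to 285 with a median of 0, a log2 ratio of -1.62 that was -2.80 without passage 2 cell 14. Nuf2 was dominated by passage 2 cell 15, whose value of 1401 exceeded the passage 1 maximum of 703, and its log2 ratio of -1.70 was -3.04 without that cell. In the 12 matched pairs, cell 15 included, it was 0.77. All 4 subunits were at 10 in 9 of 22 passage 1 cells and in 2 of 45 passage 2 cells, cells 9 and 14.

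The Mis12 complex, the bridge between inner and outer kinetochore, and its partner Zwint differed less. Zwint, which helps recruit the RZZ complex, was the most evenly held member. It ranged from 48.7 to 620 with a median of 274 at passage 1, and from 0 to 866 with a median of 150 at passage 2. It was at 10 in 22 of 22 and in 38 of 45 cells, so the groups overlapped through most of their range. The means, 291 ± 167 and 193 ± 206, gave a log2 ratio of -0.59. Mis12 ranged from 0 to 236 with a median of 5.05, and from 0 to 182 with a median of 0, a log2 ratio of -1.34. Dsn1 had a log2 ratio of -0.88, which was -1.93 without passage 2 cell 2, the holder of 522. Nsl1 was near the detection limit, with means of 2.76 ± 6.55 and 1.16 ± 0.958, and reached 10 in 2 passage 1 cells and 0 passage 2 cells. Its log2 ratio of -0.80 was -0.21 without passage 1 cell 17. The Nsl1 medians of 0.658 and 1.02 both correspond to 1 read in a cell, so their difference lies in the scaling of the cells. A larger share of passage 2 cells had a read of Nsl1, 71.1% against 54.5%. The summed reads were 91 over 22 passage 1 cells and 50 over 45 passage 2 cells.

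None of the 3 Ska genes, whose products keep kinetochores on shortening microtubules, was 2-fold lower, with log2 ratios of -0.84 for Ska1, -0.97 for Ska2 and -0.62 for Ska3. Ska3 ranged from 0 to 246 with a median of 46.4 at passage 1, and from 0 to 578 with a median of 2.00 at passage 2. The passage 2 maximum, in cell 43, exceeded every passage 1 cell, but 8 of 45 cells reached 10 against 13 of 22. Ska2 ranged from 0 to 224 with a median of 13.5, and from 0 to 199 with a median of 1.94, and was at 10 in 12 and 14 cells. Ska1 ranged from 0 to 31.7 and from 0 to 67.5, with medians of 0. It had reads in 1 passage 2 cell, cell 28, without which its log2 ratio was -2.16. In the 12 matched pairs, cell 28 included, it was 1.48. The passage 2 cells with Ska3 at 10 held between 3 and 7 other members, so none was among the cells with many members.

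Cenpe, the kinesin that moves chromosomes to the spindle equator, and Cenpf, a large coat protein of the outer kinetochore, had log2 ratios of -2.61 and -3.04. Cenpe ranged from 0 to 1710 with a median of 17.9 at passage 1, and from 0 to 601 with a median of 0 at passage 2. Cenpf ranged from 0 to 1181 with a median of 14.9, and from 0 to 229 with a median of 1.16. Passage 1 cell 18 was the highest for both genes, and the groups overlapped at low values. Without passage 2 cell 14 the Cenpe ratio was -3.56 and without passage 1 cell 18 it was -1.75, and without passage 1 cell 18 the Cenpf ratio was -2.40. Both genes were at 10 in 10 of 22 and 2 of 45 cells.

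Among 5 checkpoint genes, Bub1b, Ttk, Bub1 and Mad2l1 were at least 2-fold lower and Bub3 was not. Mad2l1, which inhibits the anaphase-promoting complex, had the highest passage 1 mean. It ranged from 0 to 848 with a median of 235 at passage 1, and from 0 to 858 with a median of 0.860 at passage 2, for a log2 ratio of -2.67 (-3.45 without passage 2 cell 14, the 858). It reached 10 in 18 of 22 and 12 of 45 cells. Bub1b, which encodes BubR1 of the inhibitory complex, ranged from 0 to 357 with a median of 1.52, and from 0 to 38.7 with a median of 0. A single passage 2 cell, cell 28, was at 10, and the log2 ratio of -4.94 was -5.82 without it. Ttk, the kinase that starts the checkpoint, was likewise at 10 in 1 passage 2 cell, cell 9, against 9 passage 1 cells (log2 ratio -4.29, and -5.59 without that cell). Bub1, the kinase that marks the inner centromere, was at 10 in 11 and 3 cells (log2 ratio -3.54). Bub3, which carries Bub1 and BubR1 to the kinetochore, ranged from 19.2 to 337 with a median of 112, and from 0 to 929 with a median of 29.1. Its means of 129 ± 74.4 and 104 ± 172 gave a log2 ratio of -0.31. It was at 10 in 22 of 22 passage 1 cells and in 25 of 45 passage 2 cells, so the share of cells differed more than the mean. All 5 were at 10 in 4 passage 1 cells and 0 passage 2 cells.

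**Figure D2:**
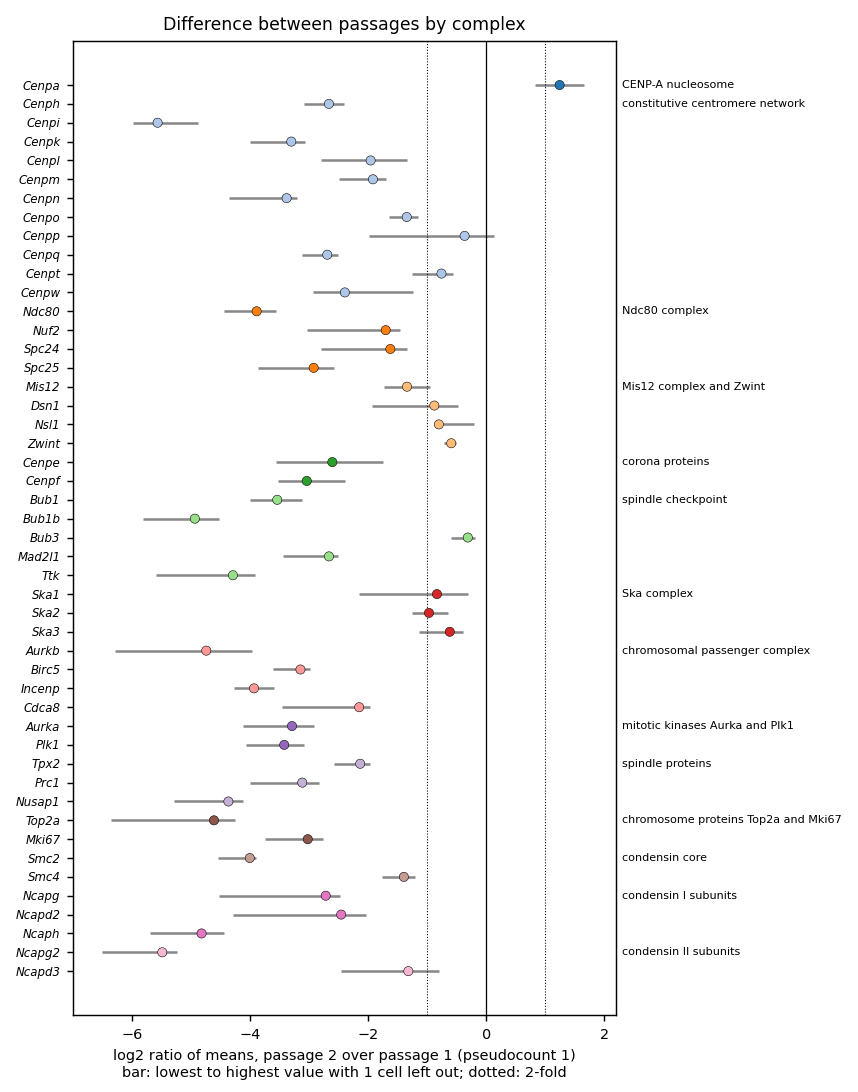
Log2 ratio of means (passage 2 over passage 1, pseudocount 1) for each of the 48 genes, colored and labelled by complex, with a bar from the lowest to the highest value when 1 cell was left out and dotted lines at 2-fold. Cenpa alone lies right of 0, at 1.24, and the values run down to -5.57 for Cenpi.

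All 4 chromosomal passenger genes were at least 2-fold lower, with a median log2 ratio of -3.54. Birc5, the survivin subunit that targets the complex to centromeres, had the highest passage 1 mean. It ranged from 2.12 to 441 with a median of 87.6 at passage 1, and from 0 to 208 with a median of 3.20 at passage 2, and its log2 ratio was -3.15. It was at 10 in 19 of 22 and 8 of 45 cells. Aurkb, the kinase of the complex, ranged from 0 to 761 with a median of 0.706 at passage 1. At passage 2 it had reads in 1 of 45 cells, 87.1 in cell 8, one of the cells with endothelial markers. Its 9 passage 1 cells at 10 lay at 46.4 or above. The summed reads were 2330 (exact 95% Poisson interval 2236 to 2427, counting error only) and 87 (69.7 to 107), and the log2 ratio of -4.74 was -6.30 without passage 2 cell 8 and -3.97 without passage 1 cell 21, which held the 761. Cdca8, the borealin subunit, ranged from 0 to 299 with a median of 25.3, and from 0 to 518 with a median of 0. Its log2 ratio was -2.15, and -3.45 without passage 2 cell 14. Incenp, the scaffold, was at 10 in 9 passage 1 cells and in 1 passage 2 cell, cell 36, which held 3 other members (log2 ratio -3.94). All 4 were at 10 in 6 of 22 and 0 of 45 cells.

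The mitotic kinases Aurka, which acts at spindle poles, and Plk1, which acts at poles and kinetochores, reached 10 in a minority of the cells of either passage. Plk1 ranged from 0 to 337 with a median of 2.18, and from 0 to 99.2 with a median of 0 (log2 ratio -3.42, and -4.08 without passage 2 cell 9). Aurka ranged from 0 to 266 with a median of 0.676, and from 0 to 95.1 with a median of 0 (log2 ratio -3.29, and -4.13 without passage 2 cell 8). The passage 1 cells at 10, 7 for Aurka and 9 for Plk1, all held at least 17 other members. The passage 2 cells at 10 were cells 8 and 9 for Aurka and cells 9, 14 and 28 for Plk1, which were also the 4 passage 2 cells with the most members.

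The spindle genes were all at least 2-fold lower. Prc1, which bundles microtubules of the central spindle, ranged from 0 to 1197 with a median of 71.4 at passage 1, and from 0 to 625 with a median of 1.04 at passage 2. Its log2 ratio was -3.12, and -4.01 without passage 2 cell 9. Tpx2, which activates Aurka on the spindle, ranged from 0 to 490 with a median of 104, and from 0 to 414 with a median of 0.694, with 16 and 10 cells at 10 (log2 ratio -2.14). Nusap1, a microtubule-stabilizing protein, ranged from 0 to 292 with a median of 11.6, and from 0 to 71.6 with a median of 0 (log2 ratio -4.37, and -5.30 without passage 2 cell 9). It reached 10 in 11 passage 1 cells and in 3 passage 2 cells.

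Top2a, which untangles sister chromatids, and Mki67, the surface coat of mitotic chromosomes and the common proliferation marker, were at 10 together in 12 of 22 and 3 of 45 cells. Top2a ranged from 0 to 1794 with a median of 78.9 at passage 1, and from 0 to 424 with a median of 0.944 at passage 2. The 424 was in passage 2 cell 14 and the next cell stood at 37.95, so the log2 ratio of -4.61 was -6.36 without cell 14. Mki67 ranged from 0 to 1085 with a median of 89.5, and from 0 to 555 with a median of 0. It separated into cells with and without it. The 15 passage 1 cells at 10 had values of at least 34.9, and the 7 at passage 2 were cells 8, 9, 13, 14, 15, 20 and 28. These were the same 7 cells that held at least 10 members, Mki67 itself included, and 5 of them held at least 10 others. The log2 ratio of Mki67, -3.02, was -3.76 without cell 9.

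**Figure D3:**
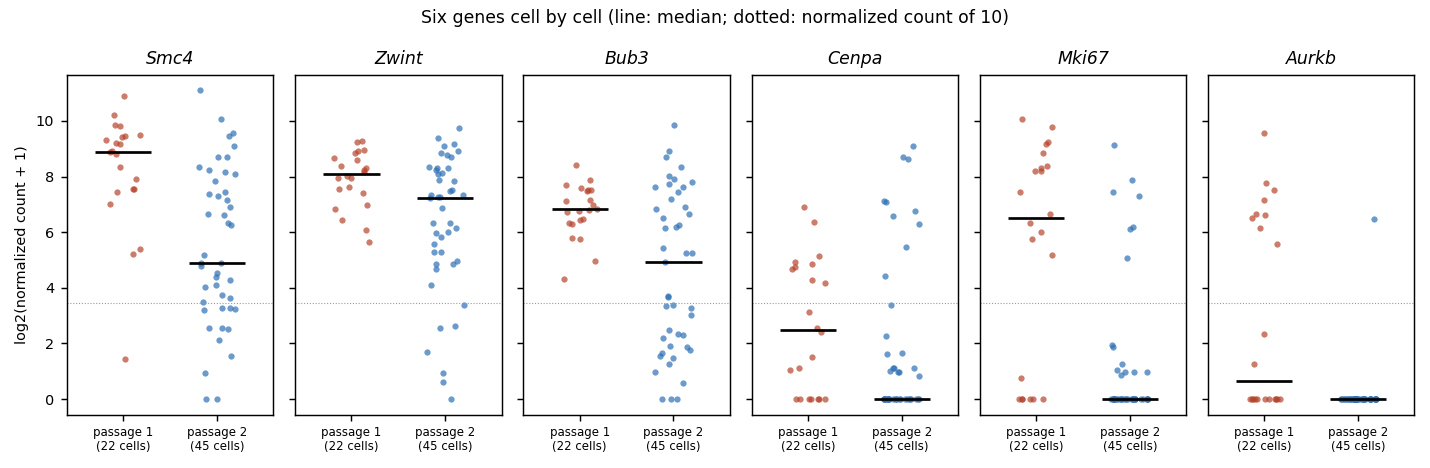
Log2 of the normalized count plus 1 in each cell (points, 22 at passage 1 and 45 at passage 2) for Smc4, Zwint, Bub3, Cenpa, Mki67 and Aurkb, with the median as a line and a normalized count of 10 dotted. Zwint, Bub3 and Smc4 are spread over most cells of both passages, whereas Aurkb has reads in 1 passage 2 cell.

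Condensin genes held both the highest levels and some of the lowest ratios. The core subunits Smc2 and Smc4, the paired ATPases shared by condensin I and II, had the highest passage 1 means per kilobase of exon, 75.2 and 101 normalized counts, followed by Zwint at 65.6 and Spc25 at 59.5. Smc4 (chr3:69004738-69034623) ranged from 1.75 to 1890 with a median of 476 at passage 1, and from 0 to 2210 with a median of 28.6 at passage 2. It was at 10 in 21 of 22 and 33 of 45 cells, and passage 2 cell 15 exceeded every passage 1 cell. Its means of 524 ± 442 and 199 ± 385 gave a log2 ratio of -1.40, which was 0.28 in 12 pairs of cells matched on reads. Smc2, its partner, ranged from 0 to 1011 with a median of 372, and from 0 to 373 with a median of 0. It was at 10 in 17 and 9 cells, with means of 412 ± 360 and 24.7 ± 65.9 and a log2 ratio of -4.01. The partners thus differed in how many passage 2 cells held them, and both were at 10 in 17 of 22 and 8 of 45 cells.

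The 3 condensin I subunits were each at least 2-fold lower. Ncapg, a subunit with HEAT repeats, ranged from 0 to 596 with a median of 64.4, and from 0 to 700 with a median of 0. Its log2 ratio was -2.72, and -4.52 without passage 2 cell 15, which held the 700. In 12 pairs of cells matched on reads it was 0.84. Ncaph, the kleisin that closes the ring, ranged from 0 to 411 with a median of 15.6, and from 0 to 51.9 with a median of 0 (log2 ratio -4.82, and -5.70 without passage 2 cell 43). Ncapd2 ranged from 0 to 245 with a median of 4.81, and from 0 to 235 with a median of 0 (log2 ratio -2.46, and -4.29 without passage 2 cell 9). Of the condensin II subunits, Ncapg2 ranged from 0 to 682 with a median of 31.9, and from 0 to 79.1 with a median of 0. Its log2 ratio was -5.49, and -6.51 without passage 2 cell 8. Ncapd3 ranged from 0 to 256 with a median of 7.72, and from 0 to 351 with a median of 0 (log2 ratio -1.32, and -2.46 without passage 2 cell 18). All 3 condensin I subunits were at 10 in 4 of 22 passage 1 cells and 0 of 45 passage 2 cells.

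At passage 1 the number of members at 10 ranged from 5 (cell 14, one of the cells with endothelial markers) to 46 (cell 1), with a median of 30. At passage 2 it ranged from 2 to 35 (cell 9), with a median of 5. At least 10 members were at 10 in 21 of 22 passage 1 cells (95.5%, exact Clopper-Pearson 95% limits 77.2 and 99.9) and in 7 of 45 at passage 2 (15.6%, limits 6.49 and 29.5). At least 30 were at 10 in 12 of 22 and 1 of 45 cells, and at least 40 in 5 of 22 and 0 of 45. Without the cells with endothelial markers the first shares were 17 of 17 and 6 of 43, and without the 3 cells under 5000 genes 20 of 21 and 5 of 43. The level of 10 matters, since every cell of both passages had at least 10 members with some read. The intervals cover the counting of cells only. Passage 1 cells also had more genes with a read, with medians of 8478 and 7257 per cell. Of the filtered genes, 73.7% were at 10 in a larger share of passage 1 than passage 2 cells. No count per cell over the filtered genes stands beside these member counts. They describe the members and are not read as particular to them.

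Zwint, Bub3 and Smc4, the only members with a passage 2 median of at least 10, were at 10 in 33 (Smc4), 38 (Zwint) and 25 (Bub3) of the 45 passage 2 cells. For the remaining 45 members, a split made after their values were seen, the median number at 10 was 27 per passage 1 cell and 3 per passage 2 cell. Of the 45 passage 2 cells, 27 held 3 or fewer. No such count over the filtered genes stands beside this split either. The members made up a median of 0.465% of a cell's reads at passage 1 (range 0.124 to 1.84) and 0.0747% at passage 2 (0.00608 to 0.863).

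The passage 1 cells with the most members were cells 1 (46), 20 (42), and 12, 18 and 22 (41 each). These 5 cells held 4 of 4 Ndc80 subunits, both corona genes and both condensin II subunits, and cells 1, 12, 18 and 20 held all 5 checkpoint genes. The passage 2 cells with the most were cell 9 (35), cells 8 and 14 (24 each) and cell 28 (19), followed by cell 15 (11) and cells 13 and 20 (10 each). Cells 13 and 15 had high values of few members, such as Nuf2, Smc4 and Cenpa, and reads in only 4163 and 4754 genes.

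The high cells differed in the genes of DNA replication they held. Of 20 replication genes, cell 8 had 16 at 10, cell 9 had 13, cell 28 had 8 and cell 14 had 3. Cell 14 held all 4 Ndc80 subunits, Cenpe, Cenpf and Plk1 with as few replication genes as the median passage 2 cell, which had 3. In the median passage 1 cell 16 replication genes were at 10. Over passage 1 cells the number of members at 10 had a Spearman correlation of 0.67 with the number of replication genes, 0.72 with genes detected and 0.42 with reads (n = 22, cells that share a passage and differ in depth). Over the 45 passage 2 cells these values were 0.16, 0.16 and -0.02.

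**Figure D4:**
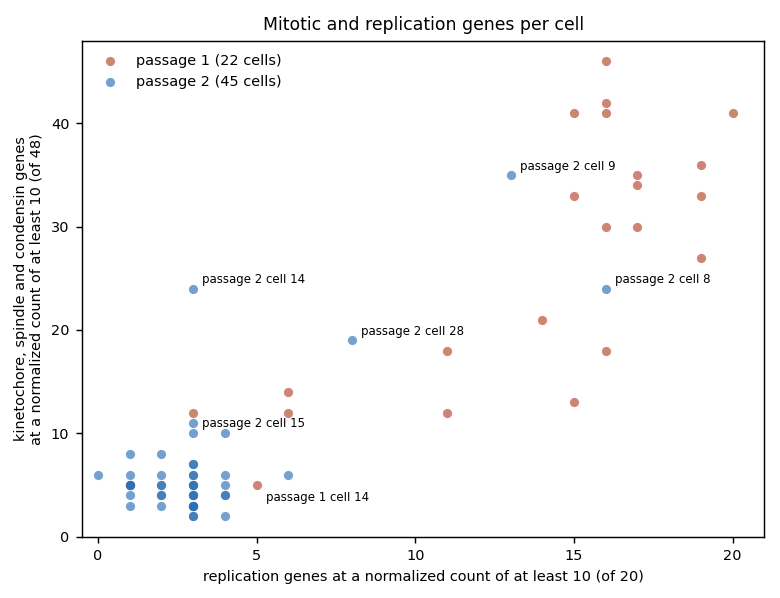
Number of the 48 genes (vertical axis) against the number of 20 replication genes (horizontal axis) at a normalized count of at least 10, one point per cell, red for 22 passage 1 cells and blue for 45 passage 2 cells, darker where points coincide. Passage 2 cell 14 stands apart with 24 members and 3 replication genes, and passage 2 cell 9 lies among the passage 1 cells.

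Across passage 1 cells, each member's value had a median Spearman correlation of 0.67 with the sum of the other members, against 0.13 for the other filtered genes with the mean of the members (n = 22). Smc2 (0.88), Ndc80 (0.87), Cenpe (0.86) and Spc25 (0.86) had the highest values. Dsn1 (0.05), Cenpp (0.19), Mis12 (0.21) and Zwint (0.23) had the lowest. Pairs of members of the same complex had a median correlation of 0.36 and pairs of different complexes 0.43, and across passage 2 cells these were 0.18 and 0.15. Across the 45 passage 2 cells the member median was 0.26, against 0.006 for the other filtered genes, and Mki67 had the highest value, 0.64. These describe cells of 1 sample per passage that share depth differences, and they are not tests.

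The 10 other genes most like the members, by the lower of their 2 correlations (one per passage) with the members' mean among 6592 genes, began with Diaph3, a formin (0.62 at passage 1 and 0.51 at passage 2). Cdc23 of the anaphase-promoting complex, Cdkn3, Cdca3, the cytokinesis kinesin Kif20a and the mitotic kinase gene Cdk1 were among them. Of these, Cdk1 was at 10 in 19 of 22 and 7 of 45 cells, with a log2 ratio of -3.64. The list also held Fam216a, Rrn3, Dnm2 and H2afz, of which Rrn3 and Dnm2 had higher passage 2 means, with log2 ratios of 0.84 and 0.33.

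Related genes outside the 48 differed by group. Beside the counts below, 19.4% of the filtered genes were 2-fold lower at passage 2 and 14.4% 2-fold higher. Of 21 other kinetochore genes, 16 were at least 2-fold lower at passage 2 and none 2-fold higher, with a median log2 ratio of -1.83. Knl1, the platform of the checkpoint, had the highest passage 1 mean, 196 ± 317, and averaged 41.6 ± 222 at passage 2, where cell 36 held 1484. The log2 ratio of Knl1 was -2.21, and -4.33 without that cell. The DNA-binding centromere gene Cenpb was on the other side of 0, at 20.8 ± 26.2 and 37.0 ± 56.2 (log2 ratio 0.80, but -0.33 from medians over cells). Of 26 other spindle genes 24 were at least 2-fold lower (median -2.36). The motor Kif11 had the lowest ratio, -4.62 (-6.06 without passage 2 cell 9), and Numa1 the highest, 0.15. The Numa1 ratio was -0.22 without passage 2 cell 33 and -0.16 without passage 2 cell 14. It was -2.17 from medians over cells and -0.83 from means of log2 values. At least 2-fold lower means were found for 7 of 9 cytokinesis genes, of which 8 passed the filter and Aurkc had no read. Such means were found for 9 of 10 mitotic cyclins and partners, with Ccnb1 at -4.81 (-5.66 without passage 2 cell 28). They were found for 19 of 20 replication genes, of which all 20 were lower (median -2.64).

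The remaining groups were mixed. In the anaphase-promoting complex and separase list 5 of 18 genes were at least 2-fold lower (median -0.36), the lowest being the inhibitor Fbxo5 at -3.62 (-4.58 without passage 2 cell 8). In the cohesin and SMC5/6 list 8 of 19 were (median -0.64). There Esco2, which acts in S phase, was at -5.33 (-4.36 without passage 1 cell 12), and the core and release genes Smc1a and Wapl were at 0.31 and 0.42, with Smc1a at -0.13 from medians over cells. Of 14 genes of the MuvB, MYBL2 and FOXM1 regulators, 3 were at least 2-fold lower and 1, E2f4, was 2-fold higher (median -0.32). Of these 14 genes 11 passed the filter. Over the filtered genes 19.4% were 2-fold lower and 14.4% 2-fold higher, and the counts for so short a list are not read as a result about it. The E2f4 ratio of 1.04 was 0.22 without passage 2 cell 42 and -1.31 from medians over cells. Housekeeping genes had a median log2 ratio of -0.09, with 0 of 14 at least 2-fold lower and 1, B2m, 2-fold higher.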

How the data were processed

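Single-cell RNA-seq libraries, 1 per cell, were made on a Fluidigm C1 system with Nextera XT reagents, per the labels' protocols. BWA, SAMtools, HTSeq, DESeq and the GRCm38 genome are named in the submitters' processing notes, without versions. The deposited table holds signal values, which the authors made by scaling the gene counts of each cell with its own size factor. Strand and multi-mapping settings are not given in the sources used here. Dividing each column by its smallest step gave whole reads (within 0.001) for all 509576 values above 0, from which depth, thinned and TMM-scaled values were computed. Symbols, positions and exon lengths were taken from GENCODE M21 (37607 of 39179 rows had a symbol) and promoters from RefSeq. Merged exons overstate the length of genes with long, rare isoforms.

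Cells were grouped by their labelled passage and numbered in accession order. Each passage is 1 sample, so no test was run. Ratios used a pseudocount of 1, and SDs describe the spread between cells. Spearman correlations used values over the cells of 1 passage. No doublet caller was run on 67 cells. All members are reported. Values of lowest, median and highest cell are given for the members of each complex with the highest passage 1 mean and with the lowest and highest ratio. Cells are named for the highest member counts or where leaving them out moved a printed value over 1.5-fold. Members and lists were chosen with earlier results of these data known. The ratio was tested on simulated data. These left out genes of low mean and had less spread between cells than most members show at passage 2. The simulation therefore does not cover those members. The tools were pandas 2.3.3, numpy 2.4.6 and scipy 1.17.1 under Python 3.11.15, matplotlib 3.10.9 for figures, and edgeR 4.0.16 in R 4.3.3 for TMM factors only. Alternatives were other pseudocounts, scalings, summaries, cell thresholds and cell subsets, and each cell left out in turn. Values of some genes of the fixed lists are not reported here.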

Additional observations from a re-analysis of the deposited data

How the results depend on the processing

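The median log2 ratio of the 48 genes, -2.67, was -1.94 with a pseudocount of 10 (-0.09 over the filtered genes) and -3.82 from medians over cells (-0.60 over the filtered genes), and lay between -3.004 and -2.50 with 1 cell left out. The number of members at least 2-fold lower, 38, lay between 35 and 45 over the other settings and between 37 and 40 with 1 cell left out. The share of filtered genes that were 2-fold lower also moved with the setting, from 19.4% in the main one. With means of log2 values 45 members were 2-fold lower, beside 35.1% of the filtered genes. From medians over cells 40 members were, beside 39.8%, and in the cells matched on reads 37 were, beside 29.8%. The share of cells with at least 10 members at 10 was 100% at both passages when any read counted. With at least 5 members it was 100% and 62.2%, and with at least 15 members 72.7% at passage 1. It was 100% at passage 1 without the cells with endothelial markers. Cenpa, the one gene of the CENP-A nucleosome group, turned to -2.49 from medians over cells and -0.71 from means of log2 values. In the 12 matched pairs 42 of 48 members were lower. The others were Nuf2 at 0.77, Smc4 at 0.28, Ncapg at 0.84, Cenpa at 2.62, Cenpp at 2.80 and Ska1 at 1.48, whose highest passage 2 cells (15, 13 and 28) were then among 12 cells rather than 45. The pairs also left out passage 1 cells 1, 12, 18 and 22, which were among the passage 1 cells with the most members. With 1 cell left out, 30 members moved by over 1.5-fold and none past 2-fold changed direction. Leaving out the cells under 5000 genes, an alternative chosen after seeing the data, gave a median of -2.88 and 39 members. No paired analysis was possible because the cells' numbers only name them and no comparison carries a test.

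Depth limits the low members. At passage 2 Incenp rests on 24 reads (exact 95% Poisson interval 15.4 to 35.7), Cenpi on 32 and Nsl1 on 50, and a cell without a read may still hold the transcript. The labels name no animal or culture, so the spread between animals is unknown.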
